A study of Homo sapiens with 12 samples.

Results

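The genes described here are 41 components of autophagy, mitophagy and the lysosome, taken by symbol from the 58735 genes whose expression was deposited for the human colonic epithelial line NCM460. Each of the 41 symbols was found once. RNA was sequenced in 12 poly(A) libraries, with n = 3 in each of 4 groups: wild-type cells in medium, wild-type cells with the inflammatory cytokine TNF-α, wild-type cells with TNF-α and 5-OH-TMT, which the labels call Bufotenidine, and TNF-α-treated cells with HTRA2 knockdown by siRNA. HTRA2 is a mitochondrial serine protease and the protein to which the study traces the action of 5-OH-TMT. The comparisons therefore ask how the pathway responds to the cytokine, to the compound added to it, and to knockdown of the protease under the same cytokine. All 4 groups are 1 cell line. The labels state neither the dose and time of TNF-α, nor whether the wild-type libraries received a control siRNA, nor whether the 3 knockdown libraries carried 1 siRNA or several. If no control siRNA was used, effects of the transfection and of the knockdown cannot be told apart. The labels also do not say that the libraries came from separate cultures, so the p-values measure the spread between libraries, which may be technical.

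In autophagy, a kinase complex and a lipid kinase complex mark the site where a double membrane forms, WIPI proteins read the lipid mark, and 2 ubiquitin-like conjugation systems attach LC3 and GABARAP proteins to the growing membrane. Cargo receptors tie ubiquitin-marked material to those proteins, and the closed vesicle fuses with lysosomes, where cathepsins degrade the content. Mitophagy is the same route taken by damaged mitochondria, and TFEB and TFE3 are transcription factors that switch on lysosomal genes. In the gut epithelium the pathway is known for ATG16L1, a gene associated with Crohn's disease.

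Expression was given as FPKM, fragments scaled to gene length and library depth, and between 31008429 and 37624399 reads fell on genes in each library. HTRA2 itself (ENSG00000115317) had an FPKM of 14.5 ± 0.774 (SD, n = 3) with TNF-α and 7.28 ± 0.137 (SD, n = 3) in the knockdown, a log2 fold change of −0.98 (limma, adjusted p = 2.77e-05). All 5 epithelial markers searched, including EPCAM, KRT8 and KRT18, had a mean FPKM of at least 1 in every group, with a summed FPKM of 2118 to 2689 per library, whereas the colon markers CDX1, CDX2, VIL1, MUC2 and CDH17 summed to at most 0.0812. The leukocyte markers PTPRC and CD3E and the fibroblast marker DCN were at or near 0. The 4 leukocyte markers summed to 0.23 to 0.34 with TNF-α and 0.843 to 1.36 in the knockdown (CD14 and CSF1R), the 3 endothelial markers to 1.42 to 1.57 and 2.21 to 3.62 (mostly CDH5), and the 4 fibroblast markers to 1.001 to 1.32 and 2.60 to 3.23 (mostly COL1A1). The part of these low signals in the knockdown results below was not tested. Reads of the mitochondrial genome made up 3.69% to 4.68% of the reads in 11 libraries and 2.945% in knockdown replicate 2. That library also departed from its replicates over all genes. Its read counts differed from those of knockdown replicates 1 and 3 by a chi-square per gene of 34.5 and 44.7. Between those 2 replicates it was 7.25, and within the other groups 7.48 to 26.1.

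Most of the machinery was expressed, at levels that differed widely between genes. Averaged over all 12 libraries, 37 of the 41 genes reached an FPKM of 1. The cathepsins CTSB and CTSD and the cargo receptor SQSTM1 were highest, with group means of 62.7 to 132 for the cathepsins and 46.1 to 83.8 for SQSTM1. PIK3C3, the catalytic subunit of the lipid kinase complex, had group means of 0.677 to 0.843, and ATG10, an E2-like enzyme of conjugation, of 0.933 to 1.03. GABARAP was barely detected, with 5, 0 and 4 reads in medium, 12, 4 and 9 with TNF-α, 7, 3 and 1 with 5-OH-TMT and 4, 14 and 0 in the knockdown. It was the single member under the filter for testing, a mean FPKM of 0.1, and 55.7% of its exon bases are shared with AC120057.2 on the same strand and AC120057.3 on the other, so its reads could have been split or left out in counting. The related GABARAPL1 and GABARAPL2 had group means of 26.8 to 39.6 and 19.7 to 23.2.

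**Figure D1:**
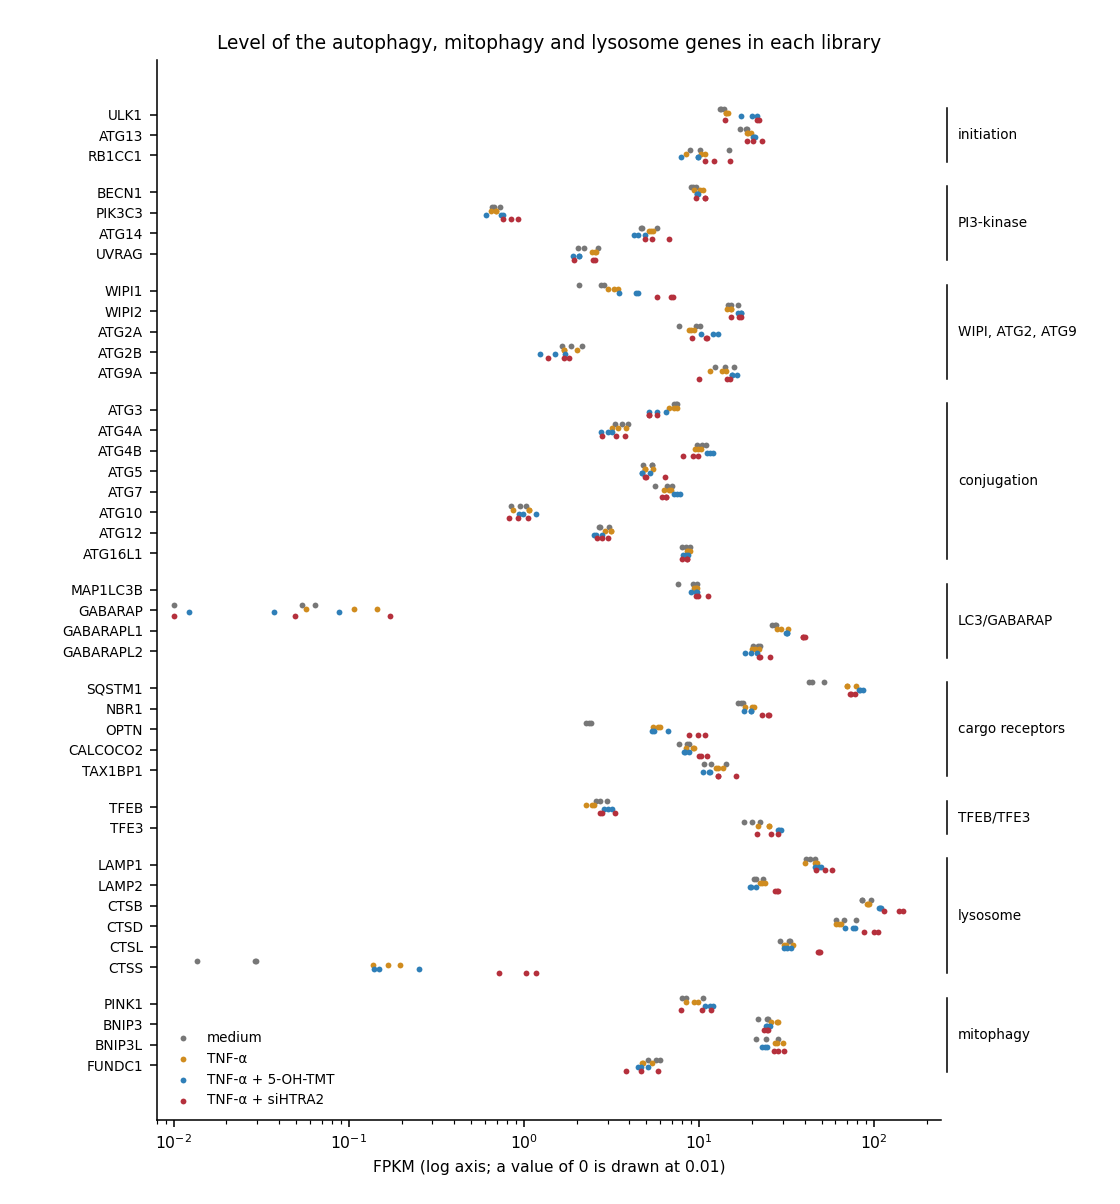
FPKM (log axis) of the 41 genes in each of the 12 libraries, 1 point per library, coloured by group and ordered by role; 0 is drawn at 0.01. CTSS, OPTN and WIPI1 separate by group, while most other genes, ATG16L1 among them, keep their libraries close together, and GABARAP scatters at a few reads.

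Changes were tested two-sided with limma on log2(FPKM + 0.1) in 1 fit of the 4 groups to the 18079 genes averaging 0.1 FPKM or more, and a gene was called at a Benjamini-Hochberg adjusted p under 0.05. Fold changes on this scale understate the change of genes with low FPKM. In bulk RNA, fewer cells with a transcript and less of it per cell cannot be told apart.

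TNF-α raised 3 of the 40 tested genes and lowered none. The 3 were the cargo receptors OPTN and SQSTM1 and the cathepsin CTSS. These are 7.5% of the 40, where 3.22% of all genes tested were called higher, 0.885% lower and 4.1% in either direction. The median log2 fold change of the 40 genes was 0.07, against −0.0020 over all genes, and their fold changes ran from −0.19 to 1.27. In 9 genes every TNF-α library lay above every medium library (11.1% of all genes), and in 1 every library lay below (8.74%). OPTN and CTSS also met the study's threshold for a differentially expressed gene, at least 2-fold with an unadjusted p of at most 0.05, which 1.76% of all genes met upward and 0.968% downward.

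Adding 5-OH-TMT to TNF-α gave no call among the 40 genes. Few genes of any kind passed here, 0.0332% of all genes higher, 0.00553% lower and 0.0387% in either direction. None of the 40 met the 2-fold threshold either, against 0.686% of all genes upward and 0.813% downward. At an unadjusted p under 0.05 there were 16 of the 40, against 20.1% of all genes, and voom on recovered reads also called 0, in a fit that called 2.07% of all genes. With a minimum mean FPKM of 1, 0 genes of the set and 1.14% of all genes were called. The median log2 fold change was 0.01, from −0.31 for UVRAG, a subunit of the lipid kinase complex, to 0.43 for ULK1, the kinase that starts autophagy. In 14 genes every library lay above those with TNF-α alone and in 9 below, against 16.3% and 15.5% of all genes. When the fit was limited to the 6 libraries compared, 4 genes passed, ULK1, ATG2A and CTSB upward and BNIP3L downward, with adjusted p-values of 0.0331 to 0.0489, and 7.01% of all genes were called in that fit. These 4 were named after their values were seen.

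HTRA2 knockdown under TNF-α raised 9 of the 40 genes and lowered 1. The lysosome held most of the rises: CTSB, CTSD, CTSL, CTSS and LAMP2, 5 of its 6 genes. WIPI1, GABARAPL1 and the cargo receptors NBR1 and OPTN made up the other 4, and the lipidation enzyme ATG3 was the one that fell. These are 22.5% and 2.5% of the 40, where 9.35% of all genes were called higher, 8.08% lower and 17.4% in either direction. The share of all genes called depends on their expression. With a minimum mean FPKM of 1, which 37 genes of the set reached, 9 were called (8 higher, 1 lower), against 27.9% of all genes in either direction. At an unadjusted p under 0.05 there were 15 of the 40, against 31.1% of all genes. The 40 genes had a median of 0.10 on the log2 scale, against −0.0034 over all genes, with 15 genes higher in every knockdown library (17.5% of all genes) and 2 lower in every one (16.4%). CTSS alone met the 2-fold threshold, which 3.08% of all genes met upward and 1.14% downward, and WIPI1 lay just under it at a log2 fold change of 0.998.

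**Figure D2:**
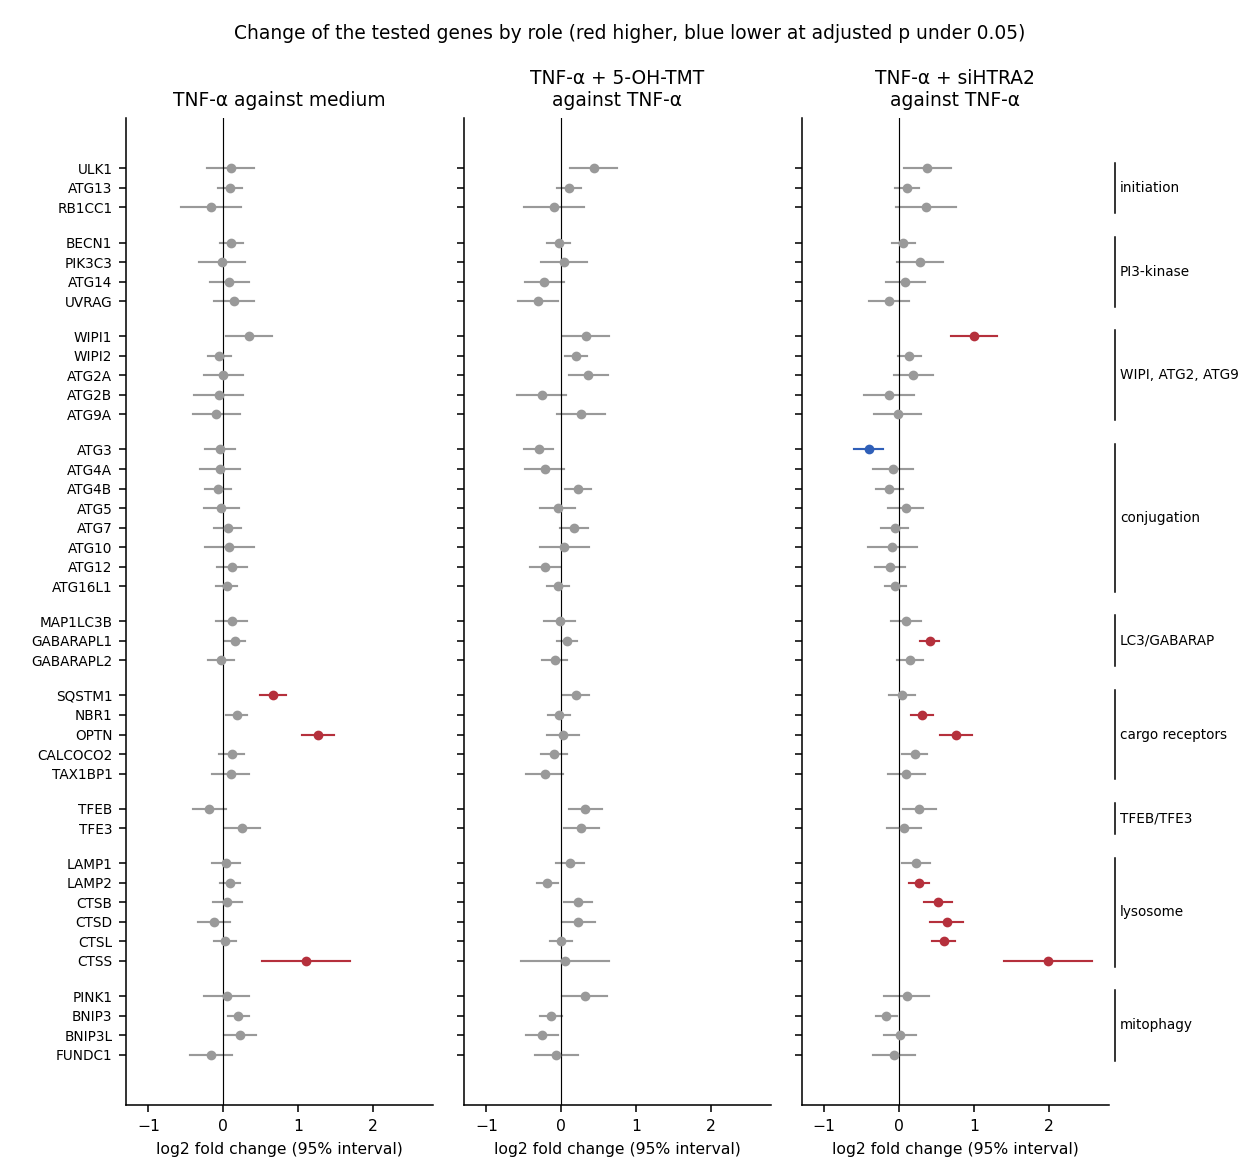
Log2 fold change (x axis) with its 95% interval for the 40 tested genes, by role, in the contrasts of TNF-α with medium, TNF-α + 5-OH-TMT with TNF-α, and TNF-α + siHTRA2 with TNF-α; red is called higher, blue called lower, grey not called. The first panel has 3 red genes, the second none, and the third 9 red genes and 1 blue, with 5 of the 6 lysosome genes red.

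The initiation and lipid kinase genes passed no test in any of these 3 comparisons in the fit of the 4 groups. ULK1 had an FPKM of 14.7, 14.3 and 14.2 with TNF-α, 20.04, 17.3 and 21.3 with 5-OH-TMT, and 21.5, 13.97 and 21.9 in the knockdown. The low knockdown library is replicate 2, the one with the smaller mitochondrial share, and it fell below all TNF-α libraries. The log2 fold change in the knockdown was 0.38 (SE 0.14, adjusted p = 0.0905), and without that library 0.59 (SE 0.08, adjusted p = 0.00073). That library was singled out after its values were seen, and ULK1 was not called without knockdown replicate 1 or 3. ATG13 and RB1CC1, which hold ULK1 in its complex, had log2 fold changes of 0.11 and 0.36 in the knockdown. BECN1, ATG14, UVRAG and PIK3C3, the lipid kinase complex, ran from −0.13 to 0.28.

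WIPI1 and ATG16L1 act one after the other at the forming membrane, and their transcripts behaved differently. WIPI1 (ENSG00000070540, chr17:68420948-68457513, minus strand of hg38) binds the lipid mark. It had an FPKM of 2.06, 2.77 and 2.86 in medium, 3.28, 3.02 and 3.42 with TNF-α, 4.34, 3.49 and 4.49 with 5-OH-TMT, and 7.10, 5.73 and 6.93 in the knockdown. Each group's libraries lay above all those of the group before it, so the 4 groups did not overlap. Only the knockdown differed from TNF-α by the test, at 6.59 ± 0.748 against 3.24 ± 0.205 (SD, n = 3), a log2 fold change of 0.998 (SE 0.14, adjusted p = 0.000539). The steps from medium to TNF-α, 0.34 (SE 0.14, adjusted p = 0.265), and from TNF-α to 5-OH-TMT, 0.33 (SE 0.14, adjusted p = 0.221), did not pass, the latter with a 95% interval of 0.02 to 0.63. The knockdown exceeded 5-OH-TMT by 0.67 (SE 0.14, adjusted p = 0.00871). Of the exon bases of WIPI1, 28.1% overlap ARSG and AC007780.1 on the opposite strand, and strandedness of the counting is not given. The 12 libraries held 243 to 872 reads of WIPI1 and 49 to 115 of ARSG, whose counts in the TNF-α and knockdown libraries overlapped.

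ATG16L1 (ENSG00000085978, chr2:233210051-233295674, plus strand) directs the LC3 conjugation machinery to the membrane. Its FPKM was 8.46, 8.85 and 7.95 in medium, 8.53, 8.82 and 8.66 with TNF-α, 8.47, 8.14 and 8.62 with 5-OH-TMT, and 8.56, 7.98 and 8.56 in the knockdown. All 4 groups overlapped. The log2 fold changes were 0.04 for TNF-α (95% interval −0.10 to 0.18), −0.04 for 5-OH-TMT (−0.19 to 0.10) and −0.05 for the knockdown (−0.19 to 0.09), with adjusted p-values of 0.841, 0.741 and 0.648. At 1571 to 1952 reads per library, these intervals leave out a change as large as that of WIPI1 in the knockdown. WIPI2, the close relative of WIPI1 that recruits ATG16L1, had group means of 14.9 to 17.1 and a log2 fold change of 0.14 in the knockdown. ATG2A, ATG2B and the scramblase ATG9A, which supply lipid to the membrane, had 0.19, −0.14 and −0.02. AC068946.2 shares 38.8% of the exon bases of ATG9A on the same strand, so reads of ATG9A could have been split or left out in counting.

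Among the 8 conjugation genes ATG3 was the one called against medium or TNF-α. ATG3 (ENSG00000144848, chr3:112532509-112562046, minus strand), the E2-like enzyme that hands LC3 to its lipid, had an FPKM of 6.73, 7.19 and 7.46 with TNF-α, 5.17, 5.73 and 6.49 with 5-OH-TMT, and 5.17, 5.78 and 5.15 in the knockdown, after 7.39, 7.15 and 7.52 in medium. Every knockdown and 5-OH-TMT library lay below every TNF-α library. The knockdown fell by 0.40 on the log2 scale (SE 0.09, adjusted p = 0.00855), and the value for 5-OH-TMT was −0.30 (SE 0.09, adjusted p = 0.122). The 2 groups differed from each other by −0.11, with a 95% interval of −0.30 to 0.09. The other conjugation genes, ATG4A, ATG4B, ATG5, ATG7, ATG10, ATG12 and ATG16L1, had log2 fold changes of −0.13 to 0.09 in the knockdown.

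Of the LC3 and GABARAP family, GABARAPL1 rose. GABARAPL1 (ENSG00000139112, chr12:10212458-10223130, plus strand) had an FPKM of 27.4, 26.0 and 27.1 in medium, 32.2, 27.9 and 29.5 with TNF-α, 31.8, 31.2 and 31.7 with 5-OH-TMT, and 39.2, 39.2 and 40.4 in the knockdown. The knockdown libraries stood above all the others, and those of 5-OH-TMT and TNF-α overlapped. The log2 fold change in the knockdown was 0.41 (SE 0.06, adjusted p = 0.000766). MAP1LC3B, the usual marker of autophagosomes, had 0.09, and GABARAPL2 0.14.

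The cargo receptors OPTN and SQSTM1 rose with TNF-α, and OPTN and NBR1 in the knockdown. OPTN (ENSG00000123240, chr10:13099449-13138308, plus strand), a receptor for ubiquitin-marked bacteria and mitochondria, had an FPKM of 2.40, 2.26 and 2.34 in medium, 5.85, 5.48 and 5.95 with TNF-α, 5.52, 5.41 and 6.64 with 5-OH-TMT, and 9.82, 10.8 and 8.81 in the knockdown. It stepped up from medium to TNF-α and again to the knockdown, with no overlap, and the TNF-α and 5-OH-TMT libraries overlapped. The log2 fold changes were 1.27 (SE 0.10, adjusted p = 1.03e-05) with TNF-α and 0.76 (SE 0.10, adjusted p = 0.000315) in the knockdown, and 0.02 (95% interval −0.20 to 0.23) with 5-OH-TMT.

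SQSTM1 (ENSG00000161011, chr5:179806398-179838078, plus strand), also called p62, had an FPKM of 44.0, 51.8 and 42.6 in medium, 70.2, 70.4 and 78.4 with TNF-α, 86.5, 82.7 and 82.2 with 5-OH-TMT, and 73.9, 73.0 and 78.2 in the knockdown. All medium libraries were lowest, the 5-OH-TMT libraries were highest, and the knockdown overlapped TNF-α. It rose with TNF-α by 0.67 (SE 0.08, adjusted p = 0.000282). The knockdown gave 0.04 (95% interval −0.13 to 0.21) and 5-OH-TMT 0.20 (SE 0.08, adjusted p = 0.188). MGAT4B and MRNIP overlap 22.0% of its exon bases on the other strand. Over the 3 libraries of a group, SQSTM1 had 35019 reads in medium and 58884 with TNF-α, MGAT4B 18424 and 21963, and MRNIP 1132 and 1605. The part of their reads in the value of SQSTM1 was not tested.

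NBR1 (ENSG00000188554, chr17:43170481-43211689, plus strand), a receptor related to p62, had an FPKM of 17.4, 16.7 and 17.8 in medium, 20.53, 18.3 and 19.97 with TNF-α, 19.7, 18.1 and 19.7 with 5-OH-TMT, and 24.7, 24.9 and 23.0 in the knockdown, where every library was above all the others. Its log2 fold change there was 0.30 (SE 0.07, adjusted p = 0.00797). CALCOCO2 and TAX1BP1, the remaining receptors, had 0.21 (adjusted p = 0.0812) and 0.10. TFEB and TFE3 passed no test, with log2 fold changes of 0.27 (adjusted p = 0.0851) and 0.07 in the knockdown and 0.32 and 0.27 with 5-OH-TMT.

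**Figure D3:**
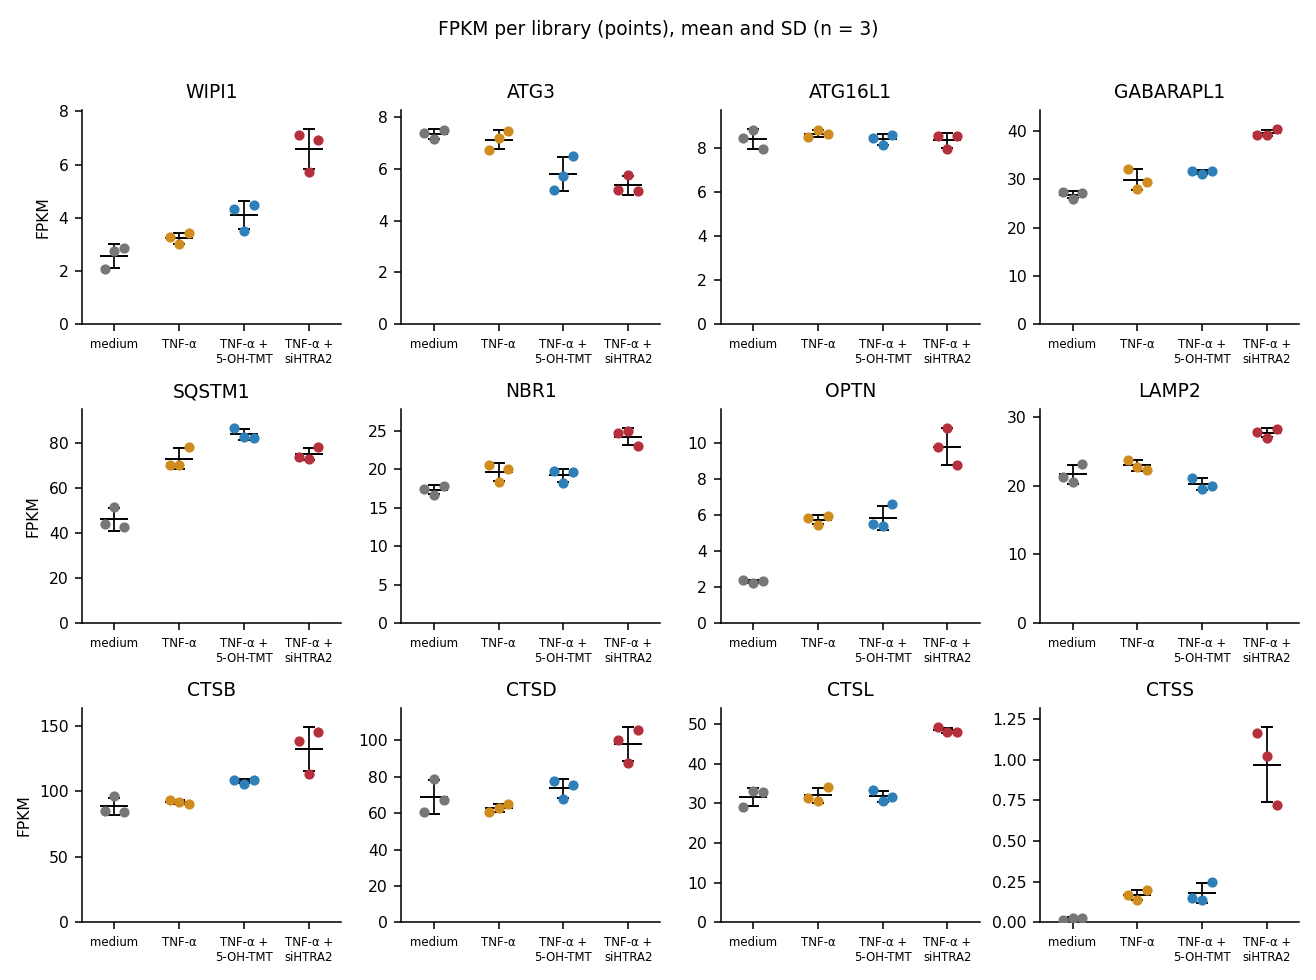
FPKM (y axis, from 0) of WIPI1, ATG16L1 and the 10 other genes of the set called in at least 1 of these 3 contrasts, with 1 point per library and the mean and SD of n = 3 per group. In the 9 panels of genes called higher in the knockdown, its points stand above all the others. Choosing genes by that call favours such a separation, and the share of all genes that show it was not counted. ATG16L1 is level, ATG3 steps down, and SQSTM1 steps up from medium to TNF-α.

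The lysosome genes moved mainly in the knockdown. The aspartic protease CTSD (ENSG00000117984, chr11:1752752-1764573, minus strand) had an FPKM of 60.5, 78.6 and 67.3 in medium, 60.5, 62.8 and 64.9 with TNF-α, 77.5, 67.8 and 75.5 with 5-OH-TMT, and 99.9, 87.4 and 106 in the knockdown, again above every other library. The cysteine protease CTSB (ENSG00000164733) had 84.9, 96.2 and 84.7 in medium, 93.4, 91.7 and 90.4 with TNF-α, 108, 106 and 109 with 5-OH-TMT, and 138, 114 and 145 in the knockdown. In both genes knockdown replicate 2, with its smaller mitochondrial share, was the lowest of its group. The log2 fold changes in the knockdown were 0.63 (SE 0.10, adjusted p = 0.00108) for CTSD and 0.52 (SE 0.09, adjusted p = 0.00162) for CTSB. With 5-OH-TMT both had 0.23, with adjusted p-values of 0.229 and 0.176. Other annotated genes share 52.7% of the exon bases of CTSD, AC068580.4 on the same strand and AC068580.3 on the other, and they held at most 22 and 55 reads in a library.

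CTSL (ENSG00000135047, chr9:87725519-87731393, plus strand), another cysteine protease, had an FPKM of 29.1, 33.1 and 32.8 in medium, 31.4, 30.5 and 34.3 with TNF-α, 33.4, 30.6 and 31.6 with 5-OH-TMT, and 49.2, 48.1 and 47.9 in the knockdown. The first 3 groups overlapped and the knockdown stood clear of them. The knockdown rose by 0.59 (SE 0.07, adjusted p = 0.00014), and the interval with 5-OH-TMT was −0.16 to 0.14. LAMP2 (ENSG00000005893, chrX:120427827-120469365, minus strand), a glycoprotein of the lysosomal membrane, had 21.2, 20.47 and 23.2 in medium, 23.8, 22.8 and 22.3 with TNF-α, 21.1, 19.5 and 19.9 with 5-OH-TMT, and 27.7, 27.0 and 28.3 in the knockdown. Here 5-OH-TMT lay below TNF-α in every library and the knockdown above. The knockdown rose by 0.27 (SE 0.06, adjusted p = 0.0119), and 5-OH-TMT gave −0.18 (SE 0.06, adjusted p = 0.148). Its partner LAMP1 had 0.23 in the knockdown (SE 0.09, adjusted p = 0.0911) and 0.30 (adjusted p = 0.0239) without knockdown replicate 2. LAMP1 was not called without knockdown replicate 1 or 3.

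CTSS (ENSG00000163131, chr1:150730196-150765957, minus strand), a cysteine protease known from antigen-presenting cells, was the scarcest of the lysosome genes. It had 2, 4 and 4 reads in medium, 26, 18 and 31 with TNF-α, 22, 21 and 38 with 5-OH-TMT, and 178, 156 and 111 in the knockdown, or a mean FPKM of 0.024, 0.167, 0.179 and 0.97. TNF-α and 5-OH-TMT overlapped, and medium and the knockdown stood apart from them and from each other. The knockdown rose by 1.99 on the log2(FPKM + 0.1) scale (SE 0.27, adjusted p = 0.000424), and the mean FPKM was 5.81-fold that of TNF-α. The rise with TNF-α, 1.102 (SE 0.27, adjusted p = 0.0399), rests on few reads: it passed in 4 of 8 other settings and in 2 of 12 fits without 1 library, with adjusted p-values of 0.00536 to 0.331 over the settings, and in the fit of only these 2 groups it lay under the filter. It was lost without any of the 6 libraries compared, for example at an adjusted p of 0.133 without TNF-α replicate 3.

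TFEB and TFE3 bind DNA at the letters CACGTG with flanking bases, so the promoters were searched for this word, on both strands. Promoters of 300 bases, 250 before to 50 after the start of RefSeq transcripts (GRCh38.p14), were matched for 34 of the 41 genes, and PINK1, UVRAG, RB1CC1, CTSB, LAMP2, CTSS and BNIP3L had no entry. CACGTG was present for 5 of the 34 (14.7%) and for 8.77% of all 27305 genes with a promoter. The longer TCACGTGA, which contains CACGTG, was present for ATG3 and LAMP1 (5.88%, against 1.18% of all genes). The first match of each of the 5 is shown 5′ to 3′ on the gene's strand, with CACGTG in capitals, because a gene that rose, one that fell and 3 that were not called in the knockdown share it. CTSD lies at chr11:1763959-1763984, ATG3 at chr3:112561965-112561990, LAMP1 at chr13:113297037-113297062, ATG14 at chr14:55411836-55411861 and BNIP3 at chr10:131982042-131982067, all on the minus strand except LAMP1.
CTSD: cggccgcgccCACGTGaccggtccgg
ATG3: tttctcacgtCACGTGccgggagagt
LAMP1: caggccgggtCACGTGggtccagggt
ATG14: aacaaaatccCACGTGactggctctc
BNIP3: gcacgcgccgCACGTGccacacgcac
The matches begin 47, 18, 192, 21 and 134 bases before the start. The promoter of LAMP1 holds 6 copies of CACGTG and that of ATG3 2, while those of CTSD, ATG14 and BNIP3 hold 1 each. CTSD, whose promoter holds the word, and CTSL, whose promoter was searched and does not, both rose in the knockdown, and WIPI1 and GABARAPL1 rose with no match in this window. A match is a description of letters and not a measured binding site.

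For TNF-α, the promoters were searched in the same way for the NF-κB consensus, the site of the transcription factor that the cytokine activates. It was found for BECN1, OPTN and TFE3, 8.82% of the 34 genes against 7.09% of all genes. The match of OPTN, which rose with TNF-α in every setting tried, lies at chr10:13100060-13100089 on the plus strand, 12 or 93 bases before the start depending on the transcript, and is in capitals.
OPTN: ggcggggcccGGGAAATTCCccggcgcggg
SQSTM1, which also rose with TNF-α, had no match, and BECN1 and TFE3 were not called.

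The 4 mitophagy genes were called in no comparison in the fit of the 4 groups. BNIP3L passed downward with 5-OH-TMT when the fit was limited to the 6 libraries compared. PINK1, the kinase that marks damaged mitochondria, had group means of 8.97 to 11.4, and the mitochondrial receptors BNIP3, BNIP3L and FUNDC1 of 23.7 to 27.2, 23.7 to 28.6 and 4.73 to 5.57. In the knockdown of the mitochondrial protease their log2 fold changes were 0.10, −0.17, 0.01 and −0.07, with adjusted p-values from 0.102 for BNIP3 to 0.945. BNIP3 was lower in every knockdown library than in any TNF-α library. MIR6084 and PINK1-AS share 41.7% of the exon bases of PINK1, 110 bases on the same strand and 1907 on the other. The part of their reads in the value of PINK1 was not tested.

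Knockdown and 5-OH-TMT, compared directly, differed in 11 of the 40 genes. The knockdown was higher in WIPI1, GABARAPL1, NBR1, OPTN, CALCOCO2, LAMP2, CTSB, CTSD, CTSL and CTSS and lower in ATG4B, 10 genes and 1, or 25% and 2.5% of the 40, against 7.85% and 7.43% of all genes and 15.3% in either direction. With a minimum mean FPKM of 1, which 37 genes of the set reached, 10 were called (9 higher, 1 lower), against 26.0% of all genes in either direction. CTSS alone met the 2-fold threshold, which 2.18% of all genes met upward. At an unadjusted p under 0.05 there were 17 of the 40, against 29.7% of all genes. CALCOCO2 had an FPKM of 8.28, 8.23 and 8.81 with 5-OH-TMT and 10.3, 11.1 and 9.996 in the knockdown, without overlap, a log2 difference of 0.31 (SE 0.08, adjusted p = 0.0209). ATG4B, the protease that trims LC3, had 11.5, 11.9 and 11.2 against 9.24, 8.07 and 9.82, also without overlap, a difference of −0.35 (SE 0.08, adjusted p = 0.0135). CALCOCO2 and ATG4B were not called without 5-OH-TMT replicate 2, nor CALCOCO2 without knockdown replicate 1. The largest differences were 1.94 for CTSS (SE 0.27, adjusted p = 0.00083), 0.74 for OPTN (SE 0.10, adjusted p = 0.000647), 0.67 for WIPI1 and 0.60 for CTSL (SE 0.07, adjusted p = 0.000239). The difference for CTSB, 0.29 (SE 0.09, adjusted p = 0.0426), was lost in 4 of 10 other settings and in 9 of 12 fits without 1 library. It held without medium replicate 2 or 3 or knockdown replicate 2, and its adjusted p reached 0.128 without knockdown replicate 1. That for CTSD, 0.40 (SE 0.10, adjusted p = 0.0188), was lost without 5-OH-TMT replicate 2 or knockdown replicate 1 or 3, with adjusted p-values up to 0.0821. The comparisons of each with TNF-α share the TNF-α libraries, and this one shares the knockdown and 5-OH-TMT libraries with them.

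A wider list of 82 other genes of the pathway was counted in the same fits, 78 of them above the filter. With TNF-α 3 rose and none fell, and these 3.85% of the 78 are near the 3.22% of all genes called higher. They were VMP1 (0.46, adjusted p = 0.00823), NRBF2 (0.35, adjusted p = 0.0369) and CTSC (0.29, adjusted p = 0.0118), which act in membrane formation, in the lipid kinase complex and as a lysosomal protease. With 5-OH-TMT none was called, and 24 of the 78 had an unadjusted p under 0.05, against 20.1% of all genes. In the knockdown 21 rose and 4 fell, with a median log2 fold change of 0.15. These are 26.9% and 5.13% of the 78, where 9.35% of all genes were called higher and 8.08% lower. With a minimum mean FPKM of 1, 27.9% of all genes were called in either direction. The counts of the wider list here use the minimum of 0.1, and its count at a minimum of 1 is not given. Without knockdown replicate 2, singled out after its values were seen, the wider list had 25 rises and 1 fall. In that fit 18.5% of all genes were called in either direction. Lysosomal hydrolases made up 13 of the 21, out of 21 hydrolases tested, with a median of 0.39. Without that library 16 hydrolases rose and none fell. The 11 membrane and acidification genes had 2 rises, the 10 early machinery genes 2 rises and 1 fall, and the 8 tested mitophagy genes 2 falls. The division of the list into these classes was made after the values were seen.

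CTSO, CTSH and CTSF, all lysosomal cysteine proteases, had the largest changes of the wider list in the knockdown. CTSO had 10, 12 and 10 reads in medium, 10, 8 and 30 with TNF-α, 25, 12 and 29 with 5-OH-TMT, and 119, 111 and 152 in the knockdown, and its log2 fold change in the knockdown was 2.43 (SE 0.31, adjusted p = 0.000315). CTSH rose from an FPKM of 1.40, 1.19 and 1.09 to 2.23, 2.54 and 2.17, by 0.87 (SE 0.12, adjusted p = 0.000493), and CTSF from 3.31, 2.99 and 3.99 to 6.77, 5.96 and 6.03, by 0.85 (SE 0.15, adjusted p = 0.00217). In each of the 3 the knockdown libraries lay above all the TNF-α libraries. The 4 that fell, named after their values were seen, were GLA, a hydrolase, PIK3R4 of the lipid kinase complex, and PGAM5 and PHB2 of the mitochondria, with log2 fold changes of −0.28, −0.25, −0.35 and −0.28. CACGTG was present for 12 of the 59 genes with a promoter (20.3%, against 8.77% of all genes), named here for the match. Of these, CTSA, CTSF, GAA and NEU1 rose in the knockdown, and NRBF2, TBK1, SNAP29, FNIP1, RRAGC, MCOLN1, CD63 and ATP6V0D1 were not called.

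**Figure D4:**
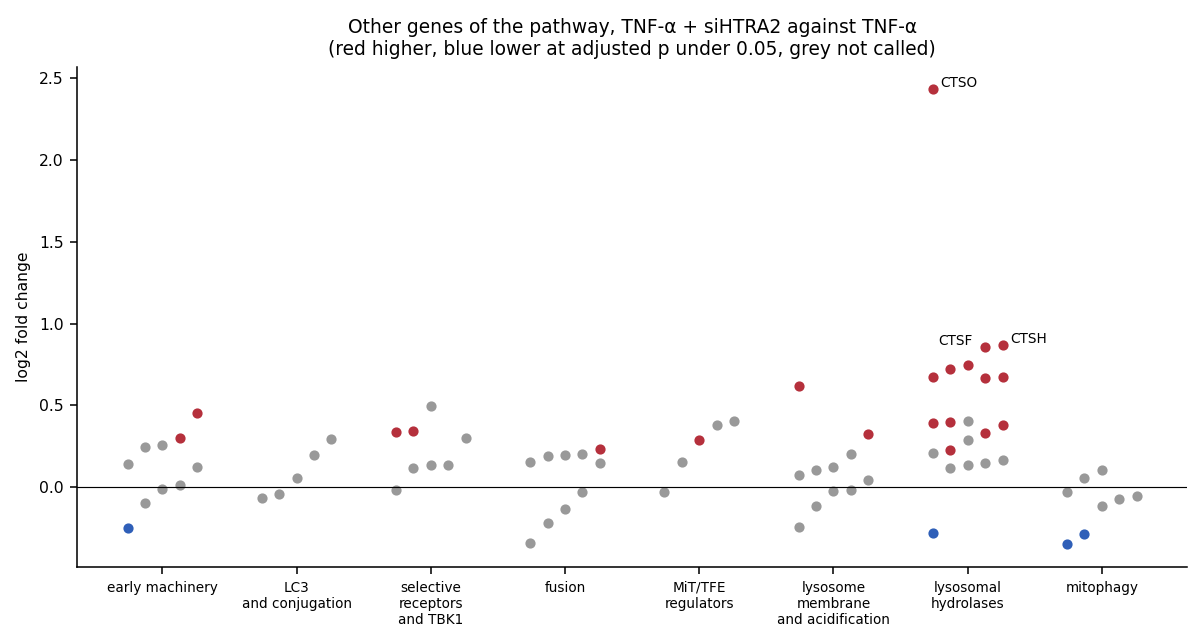
Log2 fold change (y axis) of the 78 tested genes of the wider list in TNF-α + siHTRA2 against TNF-α, 1 point per gene, by class; red is called higher, blue lower and grey not called, and the 3 largest changes are labelled. The red points gather among the lysosomal hydrolases, 13 of 21, and CTSO stands highest at 2.43.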

How the data were processed

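The authors deposited the expression of the 12 poly(A) libraries as FPKM, with the length of each gene. The submitters' processing notes name CASAVA 1.8, HISAT2 2.0.4, HTSeq 0.9.1 and hg38, without roles, and the strandedness of counting is not given in the sources used here. Multiplied by gene length and 1 divisor per library, 100% of the FPKM came to whole reads (tolerance 0.05 reads). Coordinates matched GENCODE 29 for 99.8% of genes. Where several IDs carry a symbol, the one with the highest mean FPKM was to be used.

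R 4.3.3 with limma 3.58.1 (lmFit, eBayes with trend) was fitted to log2(FPKM + 0.1), with 1 mean per group and 8 residual degrees of freedom. On simulated data of TNF-α + siHTRA2 against TNF-α with at least 18021 genes, 199 to 200 of 200 genes changed by 2 (log2) were recovered, and up to 13 unchanged genes were called. The simulation changed only genes with many reads, with a negative binomial dispersion set at 0.01 and not taken from these libraries. It does not show how smaller changes, or genes with few reads, are recovered. Values per library are given for WIPI1, ATG16L1 and each gene with an adjusted p under 0.05 against medium or TNF-α, and for the wider list up to 3 genes per contrast by size of change. The members, lists and tests were chosen with earlier results of these data known. Alternatives were pseudocounts of 1 and 0.01, a minimum mean FPKM of 1 or none, median-of-ratios and quantile scaling, a fit of only the groups compared, no trend, a replicate block, voom on recovered reads, and each library left out. Intervals cover the spread between libraries, and read counts carry counting error besides. One marker gene of the leukocyte list is not reported here.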

Additional observations from a re-analysis of the deposited data

How the results depend on the processing

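In the knockdown against TNF-α, all 10 calls held in the 10 other settings with all libraries and in the 12 fits without 1 library, except that a minimum mean FPKM of 1 removes CTSS from the test. The number called was 9 to 11 over those settings and 10 to 12 without 1 library. For TNF-α against medium it was 2 or 3 throughout, OPTN and SQSTM1 passing in all and CTSS not. For 5-OH-TMT against TNF-α it was 0, except 4 with only the groups compared (3 higher, 1 lower) and 0 to 1 without 1 library. The 1 was ULK1 without knockdown replicate 2, in a fit that called 3.16% of all genes. For the knockdown against 5-OH-TMT it was 10 to 13, and 7 to 14 without 1 library. The 7 came without 5-OH-TMT replicate 2, in a fit that called 7.23% of all genes. With the replicate number as a block (replicate block) the counts were 2, 0, 10 and 10. Same-numbered libraries did not deviate together (correlations of −0.104 to 0.0382). This cannot show whether they were prepared together, so a pairing by number stays unknown. Fold changes near 0 changed sign without 1 library. In the knockdown against 5-OH-TMT, ATG16L1 ran from −0.030 to 0.026. CTSL ran from −0.042 to 0.052 with TNF-α. With 5-OH-TMT, CTSL ran from −0.042 to 0.041, NBR1 from −0.079 to 0.0095, OPTN from −0.074 to 0.072 and CTSS from −0.12 to 0.15. None of these was called. The share of all genes called ranged from 0.00553% to 7.01% for 5-OH-TMT, from 1.91% to 6.87% for TNF-α, from 8.23% to 27.9% for the knockdown and from 6.40% to 26.0% for the knockdown against 5-OH-TMT over the settings with all libraries. Without 1 library these shares were, in the same order, 0.00551% to 3.16%, 2.89% to 4.86%, 11.1% to 19.5% and 7.23% to 17.8%. The causes were not tested. With 3 libraries per group, changes smaller than the intervals given were not detectable, and GABARAP and CTSS are limited by reads.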
